A study of Mus musculus with 12 samples.

Results

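The cytosolic ribosome of the mouse is built from ribosomal RNA and a fixed set of proteins, which are divided between a large subunit, where peptide bonds are made, and a small subunit, where the mRNA is decoded. The genes of these proteins, named Rpl for the large and Rps for the small subunit, are among the most highly expressed of any cell. Their mRNAs mostly begin with a run of pyrimidines that makes their translation depend on nutrient and growth signals through mTORC1 and the RNA-binding protein LARP1. B cells that answer lipopolysaccharide (LPS) grow before they divide, and some then become antibody-secreting plasmablasts, a state that rests on heavy protein synthesis. Here all genes whose Entrez identifier maps to a symbol that begins with Rpl or Rps and a digit, or is Rplp0, Rplp1, Rplp2 or Rpsa, were followed through this response. S6 kinase genes, Rps19bp1 and 36 rows that are pseudogenes were left out. This gave 88 members of 27179 genes, 54 named for the large and 34 for the small subunit. Of the 88, 77 are core members, 7 are paralogues with a second gene for the same protein position (Rpl3l, Rpl7l1, Rpl10l, Rpl22l1, Rpl36al, Rpl39l and Rps27l), and 4 are copies with their own symbol (Rps27rt, Rpl37rt, Rpl32l and Rps23rg1).

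RNA-Seq covered 12 libraries from C57BL/6 mice without any engineered allele named in the labels, 2 biological replicates for each of 6 stages, and the study used male animals aged 6 to 12 weeks, with the background given in its methods as C57BL/6 Pep3b. Naive B cells were sorted from spleen and were not treated. Cells of the LPS 3 h, LPS 10 h and LPS 33 h stages had been isolated by negative selection, labelled with CellTrace Violet, cultured with LPS and sorted as activated cells that had not divided. After 4 days of LPS the cultures were sorted into expanded B cells, which were CD22+ and CD138-, and plasmablasts, which had lost CD22 and gained CD138, so both carry the same treatment and time. All activated stages share the culture medium and LPS, which naive cells never met, and time in culture and stage of differentiation cannot be told apart, except between the 2 populations of day 4. The study kept the day 4 cultures at a lower cell density than those of the undivided cells. Density therefore also differs between 33 h cells and expanded B cells and cannot be told apart from stage there. The p-values below rest on a spread that all stages share, since no stage has more than 2 libraries.

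Transcription start windows of a few members are shown first, because the shared start of these mRNAs is what they are known for and because the Rps27 genes differed in sign in some comparisons. Promoters from RefSeq (GRCm38.p6, 250 bases before to 50 bases after the annotated start) were matched for 68 of the 88 members, with 80 promoters in all. Each window below holds 30 bases, its base 11 is an annotated start, and capitals mark the longest run that begins with C within 5 bases of the start and goes on with at least 4 pyrimidines. For Rps2 and Rps27l this start lies inside the annotated gene, whose first base is at 24718121 and 66944624. From 3 h to 10 h Rps27 (chr3:90213629-90213658, minus strand) and Rps27rt (chr9:114982720-114982749, minus strand) fell while Rps27l (chr9:66946076-66946105, plus strand) rose. From naive cells to 3 h Rps27rt also fell and Rps27l rose. The values of all of them had the same sign from 10 h to 33 h and from expanded B cells to plasmablasts. Rpl35 (chr2:39005112-39005141, minus strand) and Rps6 (chr4:86857348-86857377, minus strand) have long runs, and Rps2 (chr17:24720053-24720082, plus strand) and Rpl27 (chr11:101442235-101442264, plus strand) are core members that moved apart from the rest.
Rps27: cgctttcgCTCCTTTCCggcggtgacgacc
Rps27rt: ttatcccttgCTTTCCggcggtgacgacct
Rps27l: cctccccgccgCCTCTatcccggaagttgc
Rpl35: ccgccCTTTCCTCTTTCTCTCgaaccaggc
Rps6: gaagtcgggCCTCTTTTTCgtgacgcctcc
Rps2: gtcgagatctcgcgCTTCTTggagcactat
Rpl27: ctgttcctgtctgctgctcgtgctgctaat
The run was 9 bases long in Rps27 and 6 in Rps27rt, 5 in Rps27l, 16 in Rpl35, 10 in Rps6 and 6 in Rps2, and no such run lay at the annotated start of Rpl27. A run of this kind was present in 34 of the 80 member promoters (42.5%), against 18.4% of the 32851 promoters of all genes. With the C exactly at the start the shares were 18.8% and 2.51%. The letters CCGGAA, the core of ETS factor sites, stood on either strand in 46.25% of member promoters and 14.9% of all, ATGGCG, part of the YY1 motif, in 30% and 8.93%, and GGGCGG, the SP factor box, in 57.5% and 35.7%. CACGTG, the E-box that MYC binds and which reads the same on both strands, was in 10% and 7.15%, and TATAAA on either strand was in 10% and 13.6%. All these letters were searched on both strands except the pyrimidine run, matches of different motifs may share bases, and a match describes the window only.

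Total counts ran from 23026619 to 60585587 per library. The naive libraries stood apart in markers of other cell types. Summed levels of 8 myeloid markers were 408 and 163 RPKM (counts scaled to gene length and to library size) in naive cells, with Lyz2 at 141 and 60.2, against 0.205 to 9.74 in the other 10 libraries, where Lyz2 was at most 0.0621 and S100a8 had no counts. Erythroid markers, of which 6 of 7 are in the table, summed to 380 and 290 against 0.297 to 3.37. The 8 T cell markers summed to 31.7 and 34.9 against 6.01 to 17.9, most of it from Lck. Cd3e held 9 and 3 counts in naive cells and at most 1 elsewhere, whereas Cd3g held 15 and 12 (naive), 0 to 1 (3 h to 33 h), 11 and 13 (expanded) and 33 and 27 (plasmablast). Of 7 T cell markers tested, 4 were called raised and 1 lowered from 33 h to expanded B cells, against 18.5% and 21.2% of all genes tested. Mitochondrial genes took 10.3% and 11.5% of the naive counts and 4.94% to 8.47% of the others. The part of these markers and of mitochondrial counts in the comparisons with naive cells was not tested. B cell markers were detected in every library, 6 of 6, with summed levels of 6935 and 6778 RPKM in naive cells, 3688 and 3523 at 3 h and 1942 to 3029 later, and of the 5 plasmablast markers Jchain, Xbp1, Prdm1 and Sdc1 were highest in both plasmablast libraries, whereas Irf4 was highest at 3 h, at 709 and 519 RPKM against 242 and 290 in plasmablasts. Cd22, on which the day 4 cells were sorted, stood at 0.43 and 0.37 RPKM in plasmablasts and at 101 and 96.1 in expanded B cells.

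Ribosomal protein genes have many near-identical copies in the genome, so the reads of a member can be given to another row. Over the 86 members with a GENCODE M21 transcript, the share of 81-base stretches, the length of a read, that also occur in a transcript of another gene had a median of 41.9% and reached 91.8% for Rpl10. It was 0 for 5 members, among them Rps3, under 10% for 15 and over 50% for 34. In the first naive library Rps27 held 1455 counts and Rps27rt, which has 90.1% of its stretches in Rps27, held 49728. When each member was summed with the pseudogene rows and copies that bear its name, its own row held 3.12% of the counts for Rps27, 3.95% for Rpl17, 5.28% for Rpl37 and 7.11% for Rps13. The order of levels between members therefore need not be an order of mRNA abundance. With that limit, the highest means over the 6 stages were those of Rpl8 (3605 RPKM), Rplp1 (2876) and Rplp0 (2645), and the median over the 88 members was 188 RPKM. Rpl8 sits at the centre of the large subunit and ran from 3172 to 3865 RPKM over the 12 libraries. At the other end stood Rpl10l, Rpl3l and Rpl39l, genes known from testis, striated muscle and testis. Rpl10l had 1 count in all 12 libraries together, Rpl3l had 0 to 5 and Rpl39l 1 to 44 counts per library. Rpl39l passed the filter and was called in none of the 7 comparisons in edgeR, with adjusted p from 0.077 to 0.89, and at these counts differences were not detectable.

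**Figure D1:**
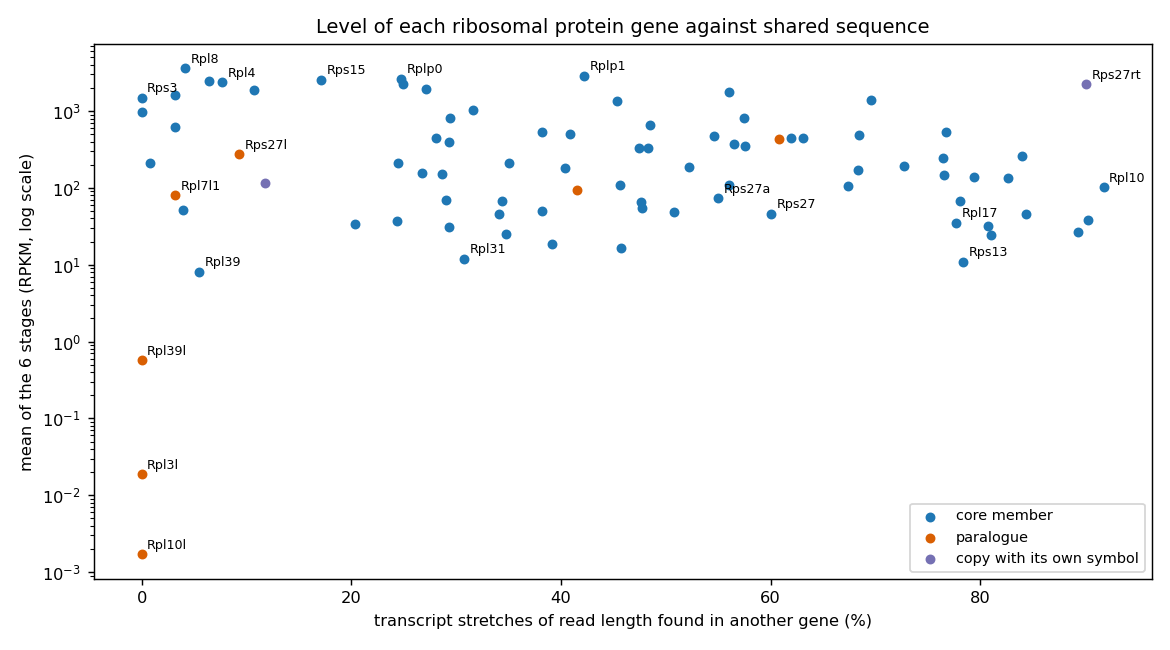
Each point is a member with a GENCODE transcript. The x axis gives the percentage of its 81-base transcript stretches that are also in another gene, and the y axis, on a log scale, its mean over the 6 stages in RPKM. Members with little shared sequence stand at both ends, with Rpl8 and Rps3 high and Rpl3l, Rpl10l and Rpl39l lowest, and Rps27 stands at 46.2 RPKM while its copy Rps27rt, with 90.1% shared, stands at 2221.

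The members together took between 2.87% and 3.98% of all counts. Their share in replicates 1 and 2 came to 3.88% and 3.79% (naive), 2.93% and 2.87% (3 h), 3.83% and 3.79% (10 h), 3.54% and 3.47% (33 h), 3.98% and 3.81% (expanded) and 3.22% and 3.35% (plasmablast). Both 3 h libraries lay below all others, plasmablasts came next, and the naive, 10 h and expanded libraries lay close together. As mean ± SD the share was 3.83% ± 0.06 (SD, n = 2) in naive cells and 2.90% ± 0.04 (SD, n = 2) at 3 h. With 2 libraries against 2 an exact permutation test cannot pass 0.05, so these shares are given as values. A share is a part of a whole, so it also moves when other genes take more or fewer counts, and bulk counts cannot tell fewer cells of a type from less RNA per cell. The 36 pseudogene rows took another 0.301% to 0.410%. The paralogues took 0.0297% and 0.0302% of naive counts, 0.0498% and 0.0492% at 3 h and 0.0489% to 0.0664% in the later libraries. The 4 copies took 0.222% and 0.216% in naive cells and 0.117% and 0.125% in plasmablasts, with Rps27rt the largest of them at both stages. At 33 h and in expanded B cells Rpl37rt held more counts than Rps27rt in both libraries.

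Counts of large subunit members stood in a ratio to those of small subunit members that differed between stages. The ratio stood at 0.998 and 0.986 (naive), 1.13 and 1.06 (3 h), 1.20 and 1.20 (10 h), 1.22 and 1.2497 (33 h), 1.26 and 1.29 (expanded) and 1.30 and 1.30 (plasmablast). Neighbouring stages did not overlap in this order. Without the 5 members with most counts of each subunit (Rplp0, Rpl4, Rpl8, Rpl13a and Rplp1, and Rps3, Rps2, Rps9, Rps14 and Rps15), the ratio was 0.691 and 0.687 (naive), 0.785 and 0.762 (3 h) and 0.923 and 0.923 (10 h), and then 0.857 to 0.895 in the other 6 libraries. The naive and 3 h libraries were thus lowest in both calculations, whereas the order of the later stages rested on those 10 members. From naive cells to plasmablasts the ratio went up 1.31 times with all members and 1.26 times without these 10, values that carry no test.

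**Figure D2:**
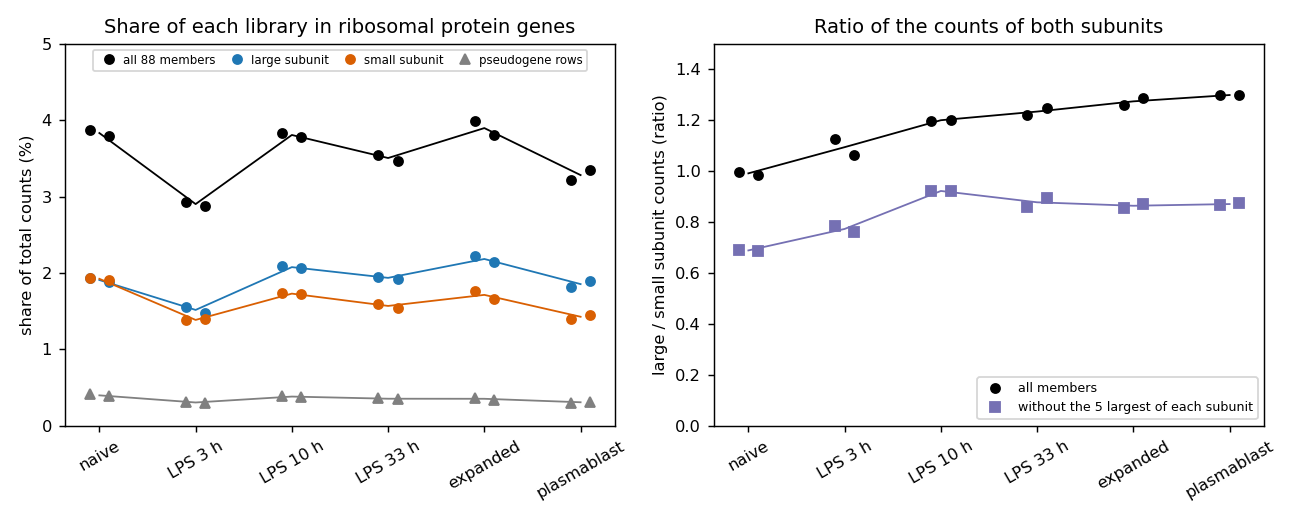
Left, the share of total counts (%) in all members, in each subunit and in pseudogene rows; right, the ratio of large to small subunit counts with all members and without the 5 largest of each subunit. Points are libraries and lines join the means of 2 libraries per stage; the share is lowest at 3 h, at 2.93% and 2.87%, and the ratio lowest in naive cells.

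Changes between stages were fitted in edgeR with all 12 libraries. Of the 88 members 82 were tested, since Rpl3l and Rpl10l fell below the filter on low counts and the 4 X-linked members (Rpl10, Rps4x, Rpl36a and Rpl39) were removed with the sex chromosomes, after the study. A member is called changed where the quasi-likelihood F-test passes an adjusted p of 0.05, and called past 1.5-fold where glmTreat against that fold change does.

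From naive cells to 3 h the F-test called 40 of the 82 members lowered and 5 raised, against 36.3% and 34.7% of the 12750 genes tested, whose quartiles lay at log2 fold changes of -0.98 and 0.73. Past 1.5-fold were 3 members, all raised (Rpl7l1, Rps27l and Rpl27), against 45.3% of all genes in either direction. With library size alone 2 were raised and 2 lowered past that fold, and Rpl27 lost its call. The median log2 fold change was -0.24, and it was negative under each scaling tried, beside -0.03 over all genes tested. Among core members, 17 of 30 tested of the small subunit fell and 2 rose, with a median of -0.28, and 19 of 43 of the large subunit fell and 1 rose, with a median of -0.17. Among the larger falls were those of the copy Rpl32l (log2 fold change -0.50 ± 0.10 (SE), adjusted p = 0.00051) and Rpsa, which lies near the exit of the mRNA channel (-0.49 ± 0.08, adjusted p = 7.9e-05). Rpsa stood at 592 and 598 RPKM in naive cells and at 434 and 413 at 3 h. Over the same step 6 of 6 B cell markers and all 8 myeloid markers fell, as did the 4 erythroid markers tested and 7 of 7 T cell markers tested, at the levels given above.

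Between 3 h and 10 h the direction of the group depended on the scaling. The F-test called 23 members raised and 11 lowered, against 32.1% and 30.2% of all genes, with a median of 0.06 beside 0.02 over all genes. With DESeq2's size factors the counts were 14 and 15 and the median turned to -0.02. Without the first LPS 10 h library they were 12 and 7. Library size alone gave 63 raised and 2 lowered and a median of 0.39, but it also moved the median of all genes to 0.35. Past 1.5-fold were 4 members, Rps27l and Rps2 raised and Rps27 and Rps27rt lowered, against 30.8% of all genes. The call of Rps27 past 1.5-fold was lost in 13 of 20 alternatives, among them the replicate block and leaving out either LPS 3 h or either LPS 10 h library, and with library size alone neither Rps27 nor Rps27rt was called past that fold. In the core set 14 large subunit members rose and 3 fell, with a median of 0.18, and 7 small subunit members rose and 5 fell, with a median of -0.01.

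From 10 h to 33 h, the last stage sampled before division, few members moved. The F-test called 14 lowered and 3 raised, against 22.2% and 23.2% of all genes, and leaving out single libraries gave 2 to 14 lowered, with 2 without the first LPS 10 h library and 4 without the second. The median was -0.06 beside -0.02 over all genes and stayed negative under each scaling tried. DESeq2's size factors called 5 lowered and 4 raised. No member passed 1.5-fold in edgeR's glmTreat, against 14.5% of all genes, 0 had an unadjusted p under 0.05 there, and DESeq2's Wald test also gave 0. The 3 that rose were Rpl22l1, Rpl27a and Rps20, and the largest called falls were those of Rps27l (-0.55 ± 0.13, adjusted p = 0.0046), Rplp2 (-0.38 ± 0.14, adjusted p = 0.042) and Rpl12 (-0.35, adjusted p = 0.027). The fall of Rps27l lost its call without the first LPS 10 h or the first LPS 33 h library, that of Rplp2 was lost in 12 of 20 alternatives, and that of Rpl12 without either LPS 10 h library or the second LPS 33 h library.

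From 33 h cells to expanded B cells 20 members rose and 1, Rpl7l1, fell, against 18.5% and 21.2% of all genes, and the call of Rpl7l1 was lost without the second LPS 33 h library or without either expanded library. The median was 0.14, positive under each scaling tried, beside -0.02 over all genes, and 70 of 82 members had a positive value. Without the first expanded library 7 rose and without the second 12. No member passed 1.5-fold in glmTreat, against 10.6% of all genes, 2 had an unadjusted p under 0.05 there, and DESeq2's Wald test gave 0. The largest called rises were those of Rpl27a (0.78 ± 0.10, adjusted p = 5.7e-05), Rps27l (0.78 ± 0.13, adjusted p = 0.00059) and Rps28 (0.59, adjusted p = 0.027), and that of Rps28 was lost without either LPS 33 h library or without the first expanded library.

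Between expanded B cells and plasmablasts, both of day 4, members were called in both directions, as were the genes tested at large. The F-test called 25 raised and 16 lowered, against 27.2% and 29.7% of all genes. Leaving out single libraries gave 8 to 27 raised and 6 to 18 lowered, with 8 raised without the second expanded library and 6 lowered without the first plasmablast library. The median was 0.11 beside -0.05 over all genes, but -0.23 with library size alone, which moved the median of all genes to -0.38 and left 3 raised and 43 lowered. Past 1.5-fold were Rpl36al raised and Rpl27a and Rpl7l1 lowered, 3 of 82 against 26.1% of all genes. Neither lowered member passed that fold without the first expanded library, without either plasmablast library or in DESeq2's Wald test, and Rpl7l1 did not without the second expanded library or with DESeq2's size factors. With library size alone Rpl36al did not pass it. Small subunit core members had a median of 0.17 with 10 raised and 5 lowered, and large subunit members a median of 0.03 with 11 raised and 10 lowered.

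**Figure D3:**
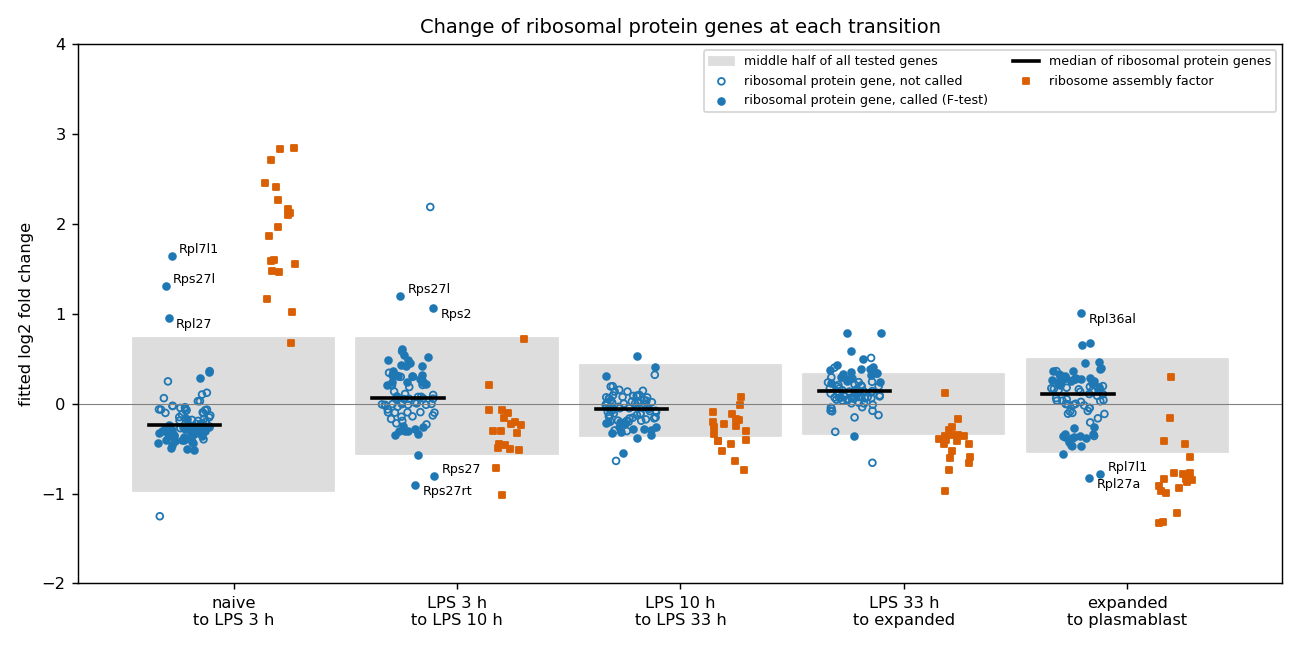
Fitted log2 fold changes at the 5 transitions with TMM scaling. Blue points are the 82 tested ribosomal protein genes, filled where the F-test called them and named where they passed 1.5-fold, black bars their medians, orange squares 19 assembly factors, and grey bands the span between the quartiles of all 12750 tested genes. The medians of the blue points lie near 0, at -0.24 at 3 h and 0.06 at 10 h (which turns to -0.02 with DESeq2's size factors) and 0.11 in plasmablasts (-0.23 with library size alone), while the assembly factors rise at 3 h.

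Over the whole course the median of the members ended near 0. From naive cells to plasmablasts 23 rose and 17 fell, against 38.2% and 35.9% of all genes, with a median of -0.01 that was 0.07 without the first plasmablast library and -0.29 with library size alone. Without the first plasmablast library 8 fell, and without the second 13 rose. Past 1.5-fold were 8 members, against 50.0% of all genes. Rps27l, Rpl36al, Rpl41, Rps29, Rpl27 and Rplp0 were raised, and Rps27 and Rps27rt lowered. The 6 raised past 1.5-fold became 3 without the second plasmablast library, with library size alone or in the Wald test, and 4 with the replicate block, with TMM factors made without ribosomal protein genes, with no filter, or without either naive or the second LPS 3 h library. Rpl27 lost this call in 15 of 20 alternatives, Rps29 in 9 and Rplp0 in 4. With library size alone 7 were lowered past 1.5-fold. The lowered pair became 1 without the first plasmablast library and in the Wald test, where Rps27 was lost. Rps29 stood at 33.8 and 60.8 RPKM in plasmablasts, and its F-test call was lost without the second library. From naive cells to 33 h, the net change before division, 36 fell and 9 rose, against 35.1% and 35.8%, with a median of -0.15, negative under each scaling tried. Past 1.5-fold were 10 members, against 43.1% of all genes. Rps27l, Rpl27 and Rpl7l1 were raised, while 7 were lowered, 6 of them core and 1 the copy Rps27rt, among them Rps27, Rps21 (-0.83 ± 0.09, adjusted p = 1.9e-06) and Rps24 (-0.82 ± 0.09, adjusted p = 1.9e-06). The 7 became 4 without the second naive or the second LPS 33 h library. In the core small subunit set 18 of 30 fell over this span by the F-test.

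Rps27l encodes a close relative of Rps27 that is known as a target of p53. Its level was, in replicates 1 and 2, 56.0 and 57.7 RPKM (naive), 128 and 153 (3 h), 357 and 289 (10 h), 191 and 249 (33 h), 397 and 361 (expanded), 517 and 527 (plasmablast). Every later library lay above the naive ones and plasmablasts above all others, with a log2 fold change of 3.20 ± 0.15 from naive cells to plasmablasts (adjusted p = 5.0e-10), 1.31 ± 0.14 of it in the first 3 h (adjusted p = 2.3e-06) and 1.20 ± 0.14 between 3 h and 10 h (adjusted p = 7.2e-06). Only 9.31% of its stretches occur in another gene. Rps27 itself had, in replicates 1 and 2, 74.7 and 76.7 RPKM (naive), 64.8 and 64.4 (3 h), 38.2 and 36.0 (10 h), 30.4 and 28.8 (33 h), 33.0 and 26.3 (expanded), 36.7 and 44.5 (plasmablast). The copy Rps27rt moved the same way at a higher level, in replicates 1 and 2, 3927 and 3916 RPKM (naive), 3076 and 3009 (3 h), 1582 and 1656 (10 h), 1394 and 1257 (33 h), 1540 and 1423 (expanded), 1826 and 2050 (plasmablast). Naive and 33 h libraries did not overlap for either gene, and the log2 fold changes were -1.35 ± 0.13 for Rps27 (adjusted p = 6.3e-07) and -1.57 ± 0.09 for Rps27rt (adjusted p = 6.3e-09), with -1.56 for the sum of both rows. The reads of Rps27 and Rps27rt cannot be told apart over most of their length, so these are best read as a single pair. Whether Rps27l differs from the pair was not tested as such. From naive cells to 3 h Rps27l rose while Rps27rt fell (-0.37, adjusted p = 0.0017). From 3 h to 10 h Rps27l rose and Rps27 and Rps27rt fell, and past 1.5-fold the call of Rps27 was lost in the alternatives given above. From 10 h to 33 h the values of Rps27l, Rps27 and Rps27rt were all negative (-0.55, -0.32 and -0.29, adjusted p = 0.0046, 0.0498 and 0.014), with the call of Rps27 lost in 13 of 20 alternatives. From expanded B cells to plasmablasts all of them rose (0.46, 0.45 and 0.39, adjusted p = 0.0095, 0.0081 and 0.0016), calls that library size alone lost. Without the second expanded library those of Rps27l and Rps27 were lost, and that of Rps27 also without the second plasmablast library. The call of Rps27rt from 10 h to 33 h was lost without the second LPS 10 h or the second LPS 33 h library.

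Rpl7l1 is a relative of Rpl7 that is known from precursor particles of the large subunit in the nucleolus. The libraries gave, in replicates 1 and 2, 43.7 and 41.6 RPKM (naive), 142 and 125 (3 h), 108 and 107 (10 h), 81.8 and 97.4 (33 h), 69.6 and 70.2 (expanded), 39.9 and 41.0 (plasmablast). It rose at 3 h by 1.64 ± 0.10 on the log2 scale (adjusted p = 9.3e-09), the largest rise of a called member there, and fell by 0.79 between expanded B cells and plasmablasts (adjusted p = 1.5e-05). Plasmablasts lay next to naive cells, with a log2 fold change of -0.08 ± 0.10 (adjusted p = 0.49). Rpl7 ran from 1266 to 1653 RPKM over all libraries and was not called at 3 h (-0.11 ± 0.07, adjusted p = 0.18).

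Rpl22l1 and Rpl22 encode alternative proteins of the same position. Rpl22 fell at 3 h, from 246.5 and 242 RPKM to 195 and 172 (-0.41 ± 0.08, adjusted p = 0.00048), where Rpl22l1 had 81.9 and 95.5 against 88.7 and 91.9 RPKM (0.03 ± 0.11, adjusted p = 0.84). Rpl22l1 was lowest at 10 h, at 56.4 and 65.2 RPKM, rose to 87.6 and 88.2 at 33 h (0.53 ± 0.11, adjusted p = 0.0016) and was highest in expanded B cells, at 132 and 117 (0.50 ± 0.11, adjusted p = 0.0027). Its fall from 3 h to 10 h (-0.57 ± 0.11, adjusted p = 0.00055) was lost with library size alone.

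Rpl36al is an autosomal copy of the X-linked Rpl36a. It had, in replicates 1 and 2, 304 and 327 RPKM (naive), 322 and 335 (3 h), 357 and 346 (10 h), 321 and 345 (33 h), 422 and 416 (expanded), 812 and 869 (plasmablast). The plasmablast libraries stood far above the others. The rise from expanded B cells to plasmablasts was 1.003 ± 0.08 on the log2 scale (adjusted p = 3.3e-07). Of its stretches 60.8% occur in other genes. Rpl36a stood at 31.9 to 63.7 RPKM, with 84.4% of its stretches shared with other genes, and was also raised from naive cells to plasmablasts (0.42, adjusted p = 0.0060, lost with library size alone or without the first naive library). A difference between the rises was not tested.

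**Figure D4:**
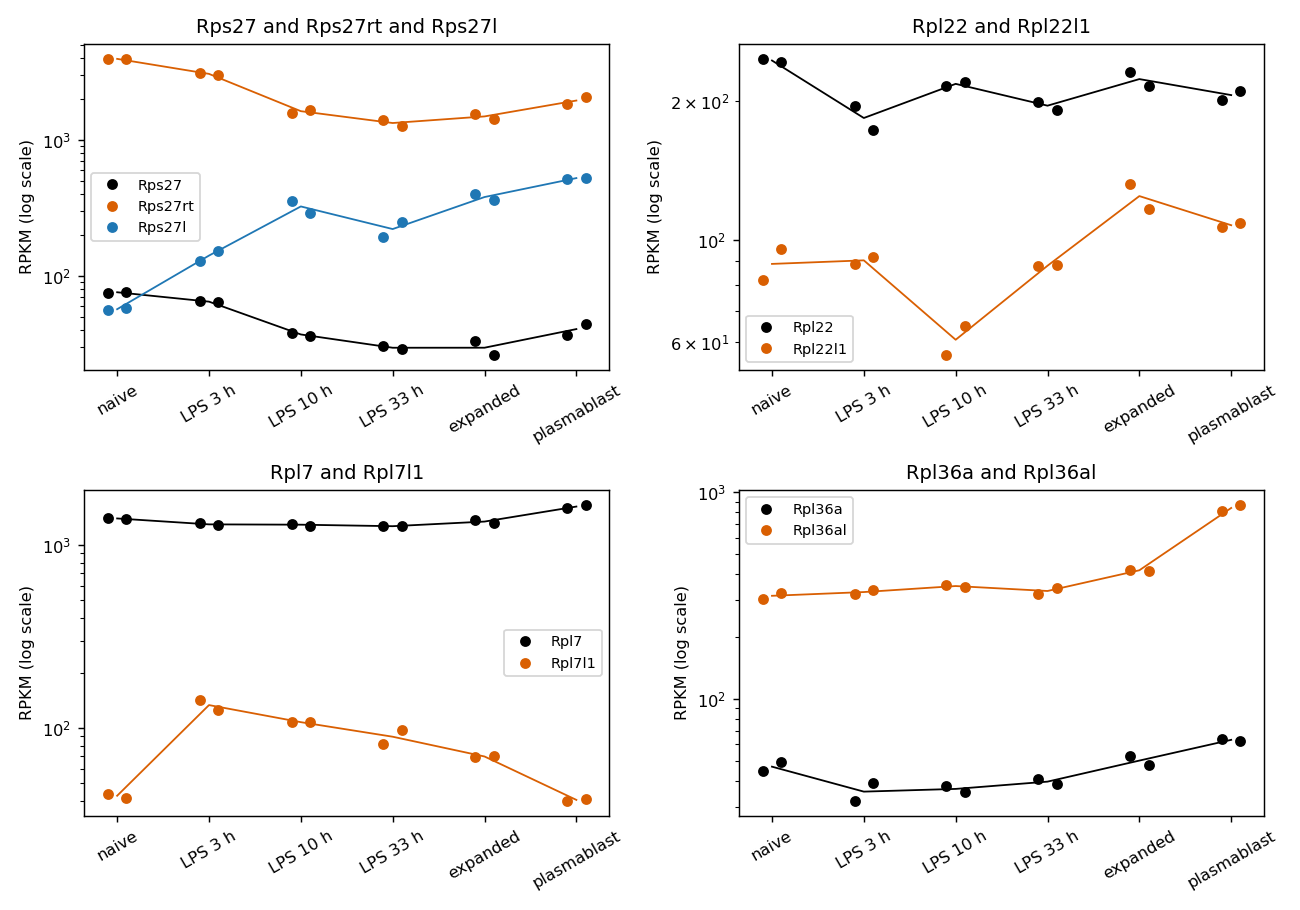
Level in RPKM, on log scales, of Rps27, Rps27rt and Rps27l, and of Rpl22, Rpl7 and Rpl36a with their paralogues, in each library at the 6 stages; lines join the means of 2 libraries. Rps27l climbs from 56.0 and 57.7 to 517 and 527, with a lower level at 33 h than at 10 h, Rps27 and Rps27rt fall to 33 h and are higher in plasmablasts than in expanded B cells, Rpl7l1 peaks at 3 h, Rpl22l1 is lowest at 10 h and Rpl36al highest in plasmablasts.

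Of the core large subunit members tested, Rpl27 rose furthest from naive cells to 3 h and to 33 h. From naive cells to plasmablasts Rpl41 rose further (1.16 against 0.77 on the log2 scale). Its level was, in replicates 1 and 2, 23.5 and 23.9 RPKM (naive), 48.3 and 43.8 (3 h), 64.1 and 58.6 (10 h), 57.4 and 73.6 (33 h), 55.3 and 49.9 (expanded), 40.1 and 40.9 (plasmablast). All 10 activated libraries lay above both naive ones (0.96 ± 0.13 at 3 h, adjusted p = 1.7e-05, and 1.47 ± 0.13 at 33 h, adjusted p = 3.2e-07). Of its stretches 50.8% occur in other genes. Rpl27a, a different protein despite its name, stood, in replicates 1 and 2, 50.8 and 46.9 RPKM (naive), 38.1 and 32.9 (3 h), 32.3 and 31.9 (10 h), 41.9 and 43.5 (33 h), 76.8 and 70.2 (expanded), 40.7 and 42.0 (plasmablast). Both expanded libraries lay above all others, and the level fell by 0.83 ± 0.10 on the log2 scale from there to plasmablasts (adjusted p = 1.2e-05). At 3 h it had fallen by 0.47 (adjusted p = 0.0010).

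Rpl5 and Rpl11 form with 5S ribosomal RNA the particle that, when free, binds Mdm2 and stabilizes p53. Rpl11 had, in replicates 1 and 2, 61.9 and 64.4 RPKM (naive), 54.0 and 52.1 (3 h), 78.7 and 72.9 (10 h), 66.0 and 72.9 (33 h), 88.9 and 88.6 (expanded), 61.2 and 59.0 (plasmablast). It was lowest at 3 h, highest in expanded B cells, and its plasmablast and 3 h libraries lay below those of the other stages. It rose from 3 h to 10 h (0.52 ± 0.09, adjusted p = 0.00037) and fell by 0.56 between expanded B cells and plasmablasts (adjusted p = 0.00020). Rpl5 ran from 47.6 to 67.5 RPKM and was highest in plasmablasts, at 66.5 and 67.5 (0.35 ± 0.08 from naive cells, adjusted p = 0.0014, lost with library size alone). From expanded B cells to plasmablasts Rpl5 had a value of 0.23 ± 0.08 (adjusted p = 0.028), a call lost without any one of the 4 libraries compared and turned to -0.11 with library size alone, and a difference between the partners was not tested. Of Rpl23 and Rpl26, which also bind Mdm2, Rpl23 fell in the first 3 h (-0.34 ± 0.08, adjusted p = 0.0023) and Rpl26 had -0.15 ± 0.11 (adjusted p = 0.23).

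The stalk proteins recruit elongation factors to the large subunit. Rplp0, its base, gave, in replicates 1 and 2, 2268 and 2288 RPKM (naive), 1961 and 1790 (3 h), 2334 and 2350 (10 h), 2441 and 2370 (33 h), 3168 and 3134 (expanded), 3734 and 3897 (plasmablast). Both 3 h libraries were the lowest and both plasmablast libraries the highest, with 0.74 ± 0.07 from naive cells to plasmablasts (adjusted p = 7.1e-07). Rplp1 rose over the same span by 0.29 ± 0.09 (adjusted p = 0.0071), a call lost without the second naive library or with library size alone, and Rplp2 had 0.32 ± 0.14 (adjusted p = 0.058). Rpl41 is a very short basic peptide at the interface of the subunits, with, in replicates 1 and 2, 817 and 834 RPKM (naive), 645 and 599 (3 h), 908 and 839 (10 h), 880.2 and 909 (33 h), 1148 and 1188 (expanded), 1759 and 1918 (plasmablast). Both 3 h libraries were again the lowest and both plasmablast libraries the highest (1.16 ± 0.08 from naive cells, adjusted p = 2.6e-08). Rpl3, which reaches towards the peptidyl transferase centre, fell at 3 h (-0.41 ± 0.08, adjusted p = 0.00073) and rose at 10 h (0.42 ± 0.08, adjusted p = 0.00072), while Rpl38, known for its part in translating Hox mRNAs, was called in none of the 7 comparisons, with adjusted p from 0.064 to 0.77.

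In the small subunit, Rps2 lies at the entry of the mRNA channel and had, in replicates 1 and 2, 995 and 1089 RPKM (naive), 846 and 856 (3 h), 1799 and 1754 (10 h), 1442 and 1405 (33 h), 1861 and 1690 (expanded), 1380 and 1373 (plasmablast). It fell at 3 h (-0.29, adjusted p = 0.0042), a call lost without the second naive library. The step from 3 h to 10 h, 1.06 ± 0.08 (adjusted p = 1.8e-07), was the largest of any called core member there, and both 10 h libraries lay above those of 3 h and naive cells. Its transcript shares 69.6% of its stretches with 46 other genes, and the pseudogene Rps2-ps10 shares most. Rps24, one of the genes mutated in Diamond-Blackfan anaemia, had, in replicates 1 and 2, 588 and 599 RPKM (naive), 471 and 449 (3 h), 408 and 397 (10 h), 342 and 329 (33 h), 338 and 334 (expanded), 492 and 582 (plasmablast). The naive libraries lay above the other 10 and the 33 h and expanded libraries lowest, and the gene rose from expanded B cells to plasmablasts (0.68 ± 0.09, adjusted p = 2.0e-05). Rps21 had, in replicates 1 and 2, 890.5 and 850.5 RPKM (naive), 682 and 609 (3 h), 520.1 and 499 (10 h), 475 and 503 (33 h), 549 and 529 (expanded), 586 and 648 (plasmablast). Both naive libraries lay above the other 10, plasmablasts included (-0.50 ± 0.09, adjusted p = 0.00016). Of Rps21's stretches 3.18% occur in another gene. Rps3, with none, had 1729 and 1727 RPKM in naive cells, 1332 and 1254 at 33 h (-0.42 ± 0.07, adjusted p = 0.00015) and 1611 and 1674 in plasmablasts. Rps15, which reaches the decoding site, and Rps14, of the platform, fell from naive cells to 33 h by 0.66 and 0.62 on the log2 scale (adjusted p = 6.4e-06 and 1.3e-05). Rpl35, chosen after its value was seen, fell at 3 h (-0.41 ± 0.12, adjusted p = 0.0100), a call not followed through the alternatives. Rps6, the substrate of S6 kinase, ran from 225 to 288 RPKM over all 12 libraries and was not called at 3 h (-0.07 ± 0.09, adjusted p = 0.50).

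**Figure D5:**
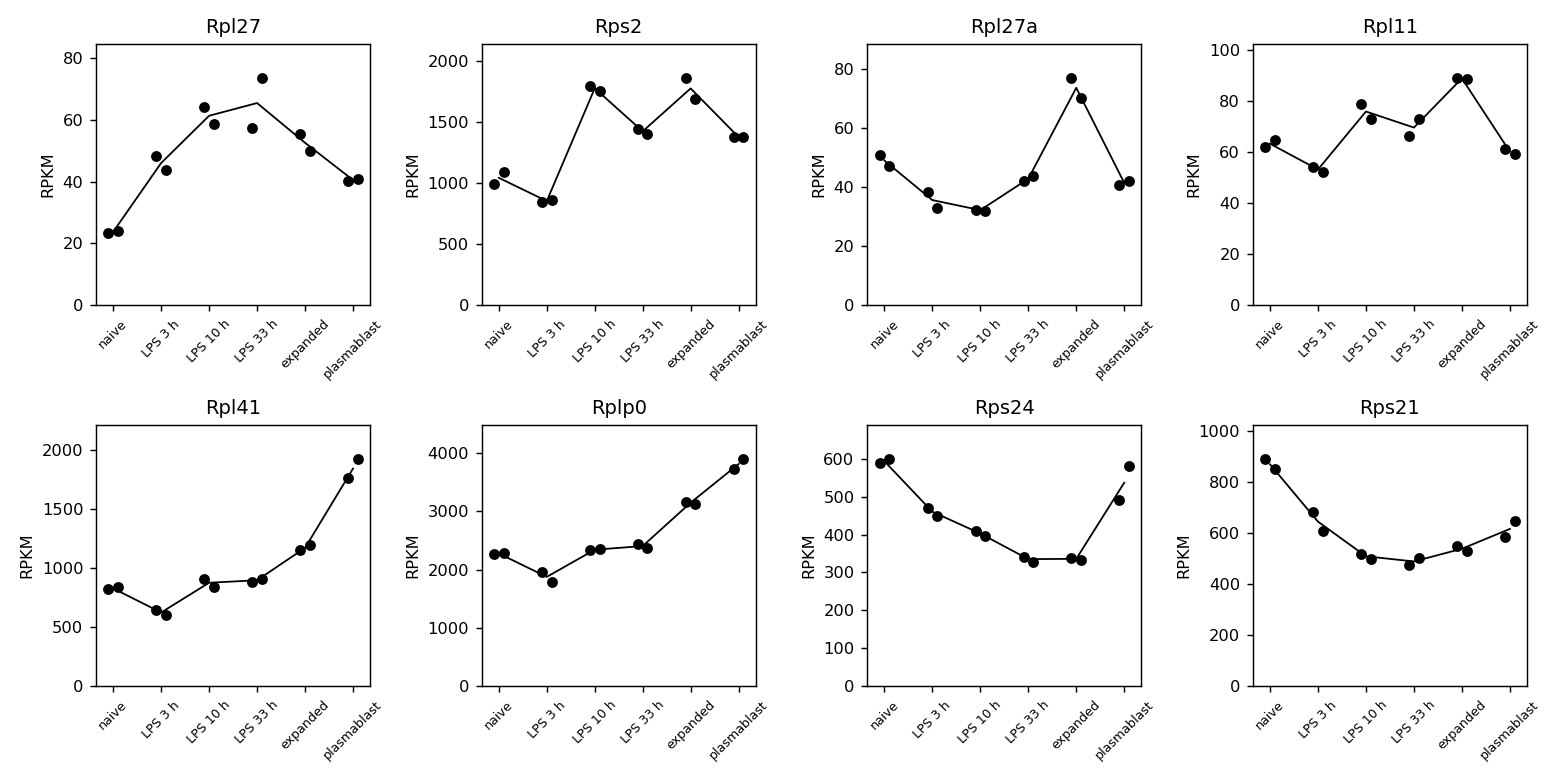
Level in RPKM of 8 core members in each library at the 6 stages, on axes that start at 0, with lines through the means of 2 libraries. Rpl27 steps up by 3 h and Rps2, after a fall at 3 h, by 10 h, Rpl27a and Rpl11 are highest in expanded B cells, Rpl41 and Rplp0 in plasmablasts, and Rps24 and Rps21 in naive cells.

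Rps27a, which is made as a fusion with ubiquitin, rose at 3 h in its own row (0.35 ± 0.09, adjusted p = 0.0040) against the direction of the group. That call was lost when its pseudogene row was added (0.11, adjusted p = 0.28) and with library size alone, and its own row held 13.3% of the summed counts.

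The X-linked members were fitted with all removed genes kept. Rpl10, a protein that joins the large subunit late, stood, in replicates 1 and 2, 77.8 and 78.1 RPKM (naive), 70.5 and 67.0 (3 h), 86.9 and 75.7 (10 h), 78.5 and 82.8 (33 h), 98.5 and 98.8 (expanded), 193 and 207 (plasmablast). The plasmablast libraries lay apart from all others, with 1.03 ± 0.09 against expanded B cells (adjusted p = 6.5e-07), a call that held in all 18 alternatives of that fit. With 91.8% of its stretches in other genes, its level is uncertain. Rps4x fell at 3 h (-0.33 ± 0.08, adjusted p = 0.0024), as did Rpl36a (-0.39 ± 0.12, adjusted p = 0.011, lost without the second naive or the first LPS 3 h library). Rpl39 held 39 to 203 counts per library and fell between expanded B cells and plasmablasts (-0.64 ± 0.25, adjusted p = 0.042), a call that 4 alternatives lost.

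Of the 12 tested members with under 10% of shared stretches, 7 fell and 2 rose at 3 h with a median of -0.30. Of the 36 with 10% to 50%, 18 fell and 0 rose with a median of -0.27. Of the 32 with over 50%, 13 fell and 3 rose with a median of -0.17. Over all genes tested 36.3% fell and 34.7% rose. When pseudogene rows and copies were summed into their members, 42 of 78 tested fell and 3 rose at 3 h.

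Other genes of the ribosome and its making were read from lists. Fau and Rack1, which encode small subunit proteins under other names, fell at 3 h, with values of -0.44 and -0.28 (adjusted p = 0.0082 and 0.0036). Among 16 other mRNAs known to carry the pyrimidine start, which encode mostly elongation and initiation factors, 3 rose and 6 fell at 3 h, against 34.7% and 36.3% of all genes tested, with a median of -0.08. Eef1a1 and Eef2, the main elongation factors, fell by 0.26 and 0.38 (adjusted p = 0.016 and 0.0015). At the step to plasmablasts 9 of the 16 fell and 1 rose, against 29.7% and 27.2%, with a median of -0.26, led by Npm1 (-1.65, adjusted p = 1.3e-08).

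Assembly factors build ribosomes in the nucleolus and the cytoplasm. Of 19 tested all rose at 3 h, against 34.7% of all genes, and 18 of them past 1.5-fold, against 45.3% of all genes in either direction, with a median of 1.96 on the log2 scale beside -0.24 for the ribosomal protein genes. Gnl3, Polr1b and Nop56, which serve the nucleolus, RNA polymerase I and box C/D snoRNPs, rose by 2.85, 2.83 and 2.12 (adjusted p = 1.7e-10, 2.3e-10 and 1.1e-08). From expanded B cells to plasmablasts 17 of the 19 fell and 1 rose, against 29.7% and 27.2% of all genes, with a median of -0.84. Of 10 chaperones of ribosomal proteins tested, 8 rose and 1 fell at 3 h, against 34.7% and 36.3%, with a median of 1.001, among them Ncl (2.19, adjusted p = 1.0e-09), and 8 fell and 1 rose at the last step, against 29.7% and 27.2%, with a median of -0.86. Npm1 stands in both this list and the one with pyrimidine starts. Of 13 tested regulators of translation of these mRNAs, 7 rose and 3 fell at 3 h, against 34.7% and 36.3% of all genes. Larp1, which binds the pyrimidine start, rose by 2.19 (adjusted p = 2.9e-10) and Rps6kb1, an S6 kinase, by 1.33 (adjusted p = 8.4e-08), whereas Eif4ebp2, a repressor of cap-dependent initiation, fell by 0.53 (adjusted p = 0.00014). A difference between these lists and the members was not tested.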

How the data were processed

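RNA was measured by polyA-selected, paired-end RNA-Seq (81-base reads). The authors aligned reads to mm10 with Rsubread and deposited the unnormalised counts per Entrez gene made by featureCounts, with a gene length; the submitters' processing notes also name CASAVA 1.8.2. Whether reads found in several places were counted is not given in the sources used here. Identifiers were matched to symbols. After the study's methods, genes without a match, mitochondrial, X and Y genes and variable immunoglobulin segments were removed, as were the ribosomal genes the study names. These removals took 9.44% to 15.95% of counts in all. Ribosomal was read here as rRNA, so that ribosomal protein genes stayed in the fit. The study's RNA-Seq methods do not say which genes this means, whereas its methods for promoters write rRNA/ncRNA. After the removals 12750 genes passed edgeR's filterByExpr. All 12 libraries were fitted in edgeR 4.0.16 (R 4.3.3, limma 3.58.1) with TMM scaling, robust quasi-likelihood F-tests and glmTreat against 1.5-fold, and p-values were adjusted by Benjamini-Hochberg over all genes of a comparison. X-linked members came from the same fit with removed genes kept. Deposited counts were turned into RPKM with the deposited gene lengths and TMM-scaled library sizes. DESeq2 1.42.0, other scalings and filters, a replicate block and left-out libraries served as alternatives, and summing copies was added after seeing the data.

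Totals were 23026619 to 60585587 counts per library. In simulated counts of 12750 genes, 50 genes drawn at any level were changed at 3 h by each of 1.25-, 1.5-, 2- and 4-fold. From naive cells to 3 h the F-test found 8%, 50%, 70% and 86% of them, with 10 false calls. In the same order glmTreat against 1.5-fold found 0%, 0%, 28% and 78%, with 1 false call. Far fewer genes changed there than in the real data, which makes the adjusted p stricter. These shares are therefore not the power for the members. The members named were those with a role in a list, the X-linked ones, those with the 3 highest and lowest levels, and the 3 largest called rises and falls of each comparison; Rpl35 and Rps16 were chosen after their values were seen. Some genes that this rule or the lists include are not reported here. Members and lists were chosen with earlier results of these data known. Figures were drawn with matplotlib 3.10.9.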

Additional observations from a re-analysis of the deposited data

How the results depend on the processing

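The counts of called members depended mostly on the scaling and on single libraries. With library size alone the median of all genes tested was -0.24, 0.35, -0.08, -0.03 and -0.38 at the 5 transitions in order, 0.06 from naive cells to 33 h and -0.26 from naive cells to plasmablasts, against medians between -0.05 and 0.02 with TMM. At the first step it gave 3 raised and 64 lowered members and a median of -0.45, and summing copies into their members gave 3 raised. From 3 h to 10 h library size alone gave 63 raised, 2 lowered, 9 past 1.5-fold and a median of 0.39, whereas DESeq2's size factors gave 14 raised and a median of -0.016, and DESeq2's Wald test 14 raised. From 10 h to 33 h the lowered members were 5 with DESeq2's size factors, 6 with TMM factors made without ribosomal protein genes, 6 with no filter and 8 in the Wald test, and the median was -0.12 with library size alone. From 33 h to expanded B cells 2 were lowered with library size alone, with TMM without ribosomal protein genes, with no filter and with the removed genes kept. From expanded B cells to plasmablasts library size alone gave 3 raised, 43 lowered and a median of -0.23, no filter gave 16 raised and the Wald test 1 past 1.5-fold. Over the span to 33 h library size alone gave 14 raised and a median of -0.083, and the median was -0.20 with DESeq2's size factors and -0.11 with no filter. Over the whole course library size alone gave 7 raised, 45 lowered and a median of -0.29, and the Wald test 4 past 1.5-fold. The cause of these differences was not tested beyond the shift of all genes.

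Leaving out each library in turn gave ranges of -0.27 to -0.22 for the median from naive cells to 3 h, 12 to 27 raised and 7 to 13 lowered from 3 h to 10 h, 2 to 14 lowered and 0 to 1 past 1.5-fold from 10 h to 33 h, 7 to 27 raised, 0 to 2 lowered and 0 to 1 past 1.5-fold from 33 h to expanded B cells, 8 to 27 raised, 6 to 18 lowered, 1 to 3 past 1.5-fold and a median of 0.020 to 0.17 from expanded B cells to plasmablasts, a median of -0.20 to -0.13 from naive cells to 33 h, and 13 to 26 raised, 8 to 24 lowered and a median of -0.048 to 0.069 from naive cells to plasmablasts.

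Of 151 called results of named members, 77 held in every alternative and the other 74 lost the call or changed sign in at least 1. The sign changed in 16, each with library size alone. From expanded B cells to plasmablasts the values then became -0.067 for Rpl7, -0.059 for Rpl36a, -0.063 for Rplp0, -0.11 for Rpl5, -0.072 for Rpl26, -0.085 for Rps3, -0.12 for Rps10, -0.026 for Rpl17, -0.15 for Rps4x, -0.052 for Rpl32l and -0.055 for Rps20. From 3 h to 10 h they became 0.024 for Rpl7l1 and 0.054 for Rps20, and from naive cells to plasmablasts -0.0053 for Rpl22l1, -0.069 for Rpl7 and -0.071 for Rps20.

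Relative to the counts left after the removals, which no longer hold the 4 X-linked members, the counts of all 88 members came to 4.52% (naive), 3.27% (3 h), 4.24% (10 h), 3.92% (33 h), 4.38% (expanded) and 3.83% (plasmablast). Without those 4 the members took 4.44%, 3.21%, 4.18%, 3.85%, 4.31% and 3.76% of the counts left, in the same order. With the pseudogene rows added to the members the share of all counts was 4.23%, 3.21%, 4.19%, 3.86%, 4.25% and 3.59%. The 3 h stage was lowest in each. The plasmablast over naive ratio of large to small subunit counts, 1.31, was 1.284 with core members alone, 1.27995 with pseudogene rows and 1.26 without the 5 largest of each subunit.

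The replicate numbers did not pair the libraries, with 15 correlations of deviations between -0.14 and 0.08. With the replicate number as a block, 38 members were lowered and 4 raised from naive cells to 3 h, and the later transitions gave 23 raised and 11 lowered, 3 and 12, 18 and 1, and 23 and 16. The spans from the naive stage gave 9 and 34 (33 h) and 22 and 17 (plasmablast). No count by the F-test moved by over 1.5 times. Past 1.5-fold the lowered members went from 2 to 1 from 3 h to 10 h and the raised ones from 6 to 4 from naive cells to plasmablasts, and the other counts past that fold stayed as they were.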

Other observations

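Rps16, a small subunit protein near the decoding site, differed between the 10 h libraries more than between stages, at 368 RPKM in the first and 161 in the second against 162 to 243 in the other 10 libraries. It was called in none of the 7 comparisons, with an adjusted p of 0.11 from 3 h to 10 h. Rpl39l held 44 and 25 counts at 33 h and 5 and 13 in naive cells, and it was not called at that distance (adjusted p = 0.16).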
